A study of Mus musculus with 12 samples.

Results

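The Reg family of mouse pancreas was followed through 12 RNA-sequencing libraries of whole pancreas. Its 6 members here are Reg1, Reg2, Reg3a, Reg3b, Reg3d and Reg3g, taken by name from the 49585 genes listed per library, and all 6 passed the filter on low counts. A more distant relative, Reg4, had 0 counts in all 12 libraries. Each library came from 1 animal aged 2 to 4 months that received 4 injections over 4 h, and tissue was taken at 4 h. The 4 groups hold 3 animals each. Wild-type C57Bl6 mice received saline (libraries W1, K5 and R3) or cerulein at 50 ug/kg per injection (O1, O3 and N3). Mice of a congenic line labelled Atf3-/- received saline (S1, K4 and Q1) or the same cerulein course (C2, C3 and L4). Cerulein is a cholecystokinin analogue that overstimulates acinar cells and is widely used to induce acute pancreatitis in rodents.

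Reg proteins are small secreted proteins built around a single C-type lectin-like fold. In the pancreas they come mainly from acinar cells. Reg1 is known as pancreatic stone protein or lithostathine, and Reg3b was first described as pancreatitis-associated protein. Reg3b and Reg3g are also made by the intestinal epithelium, where they act on bacteria, and their genes are known targets of STAT3 downstream of IL-6 and IL-22.

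All 6 genes lie side by side on chromosome 6 (GRCm38, 78370657 to 78468872), a stretch of 98.2 kb that holds no other gene model of GENCODE M21. The order along the chromosome is Reg3b (78370657 to 78373466, plus strand, ENSMUSG00000071356), Reg3d (78375874 to 78378865, minus strand, ENSMUSG00000068341), Reg3a (78380709 to 78383827, plus strand, ENSMUSG00000079516), Reg2 (78395623 to 78408106, plus strand, ENSMUSG00000023140), Reg1 (78422711 to 78428667, plus strand, ENSMUSG00000059654) and Reg3g (78466269 to 78468872, minus strand, ENSMUSG00000030017). The nearest protein-coding gene, Ctnna2, begins 391 kb away and reached at most 0.391 CPM (counts per 1000000 of the scaled library size, as defined below). The coding sequences are 495 to 525 bases long. They are closest between Reg1 and Reg2 (82.6% identical), Reg3a and Reg3b (76.5%) and Reg3b and Reg3g (76.4%). Even so, no stretch of 50 bases was shared between the transcripts of any pair of members, and none of a Reg3 member occurred in a transcript of another gene. Of the 50-base stretches of Reg1, 32 of 876 also occurred in transcripts of other genes on the same strand, and of Reg2, 39 of 899. On the opposite strand 6 and 102 did, and the strand setting of the counting is not known.

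Because the 6 neighbours have separate starts and varied together between animals, the 150 bases before each RefSeq start are shown here, 5′ to 3′, in chromosomal order. They come from the RefSeq promoters of GRCm38.p6 and lie at chr6:78370735-78370884 for Reg3b (plus strand), chr6:78378866-78379015 for Reg3d (minus strand), chr6:78380559-78380708 for Reg3a (plus strand), chr6:78405005-78405154 for Reg2 (plus strand), chr6:78425833-78425982 for Reg1 (plus strand), chr6:78468875-78469024 for Reg3g (minus strand). For Reg3b, Reg2 and Reg1 these stretches lie inside the GENCODE gene spans given above, because the RefSeq start used lies downstream of the outermost GENCODE start. Capitals mark TATAAA, the STAT-type palindrome TTCNNNGAA and the AP-1-type TGANTCA, read on both strands.
Reg3b: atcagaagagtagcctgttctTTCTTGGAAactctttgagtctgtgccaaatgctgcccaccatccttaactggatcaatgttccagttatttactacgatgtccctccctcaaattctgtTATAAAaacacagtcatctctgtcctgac
Reg3d: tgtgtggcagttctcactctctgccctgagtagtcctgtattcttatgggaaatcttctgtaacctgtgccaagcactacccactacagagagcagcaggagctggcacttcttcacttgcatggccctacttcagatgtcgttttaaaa
Reg3a: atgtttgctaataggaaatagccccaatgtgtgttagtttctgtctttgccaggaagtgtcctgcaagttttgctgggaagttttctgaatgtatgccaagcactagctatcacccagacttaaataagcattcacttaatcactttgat
Reg2: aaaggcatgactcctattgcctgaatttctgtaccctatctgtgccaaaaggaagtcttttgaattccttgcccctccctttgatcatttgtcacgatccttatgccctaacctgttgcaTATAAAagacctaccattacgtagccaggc
Reg1: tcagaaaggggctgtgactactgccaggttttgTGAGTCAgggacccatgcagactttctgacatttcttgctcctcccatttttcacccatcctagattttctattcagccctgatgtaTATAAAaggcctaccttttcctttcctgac
Reg3g: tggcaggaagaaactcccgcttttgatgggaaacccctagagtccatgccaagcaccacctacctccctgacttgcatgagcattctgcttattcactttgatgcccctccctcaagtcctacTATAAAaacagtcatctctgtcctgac

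TATAAA stood 22 to 30 bases before the start in Reg1, Reg2, Reg3b and Reg3g, with another on the opposite strand of Reg3g at 161 to 156 bases (before the stretch printed), and was in none of the 250-base windows of Reg3a and Reg3d. It was found in 12.4% of all 32817 RefSeq promoter windows of that length. TTCNNNGAA occurred in Reg3b, at 129 to 121 bases before the start, and in Reg3d, at 238 to 230 bases (before the stretch printed), against 7.01% of all windows. TGANTCA occurred in Reg1 only among the members, at 117 to 111 bases, against 6.75% of all windows. Other strings searched on both strands were CACCTG, an E-box, in 4 of 6 members (17.2% of all windows), TTCCCA, an RBPJ half-site, in 5 of 6 (21.6%), and TGACGTCA, the CRE, in 0 of 6 (1.55%). In Reg3d the TTCCCA match overlaps the TTCNNNGAA match. TGCCAA, which was looked for only after the sequences had been read, occurred in all 6 (12.3% of all windows). These matches describe the sequence and were not tied to any binding measurement.

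Depth ran from 18292997 to 32158629 counts per library. Levels are CPM on library sizes scaled by TMM (trimmed mean of M values). Atf3 counts were not lower in the line labelled Atf3-/-. With saline they were higher, at 7.44 to 23.1 CPM against 1.13 to 5.28 in wild type. With cerulein C2 and L4 were higher too, at 1375 and 1636 CPM against 394 to 775 in wild type. The line is therefore called the labelled knockout here. Which part of the gene was targeted is not given in the sources used here. Library C3, labelled knockout and cerulein, stood apart from the other cerulein libraries. Its Atf3 level was 20.7 CPM against 1375 in C2 and 1636 in L4, and Lif, a cytokine gene, had 0.938 CPM against 261 and 412. C3 is therefore shown apart, and each result that rests on it is given with and without it. Acinar markers were abundant in all libraries (10 of 10 detected), with a summed level of 322117 to 481264 CPM over the 6 saline libraries. It was 236159 to 295617 over the cerulein libraries without C3, and 382156 in C3.

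Reg1 dominated the family. Per kilobase of exon, its mean level in wild type with saline was 17486 ± 5985 CPM per kb (SD, n = 3), followed by Reg3b at 2440.0 ± 1450, Reg2 at 2263 ± 1519, Reg3d at 1043 ± 494, Reg3a at 344 ± 264 and Reg3g at 182 ± 149. Within each of the 12 libraries Reg1 was the highest, and it made up 66.5% to 95.2% of all Reg counts. The SDs between animals of Reg3b and Reg2 cover the difference between their means, and so do those of Reg3a and Reg3g. Within each wild-type saline library, though, Reg3b lay above Reg2 and Reg3a above Reg3g per kilobase of exon. The order of Reg3a and Reg3g depends on the transcript length used, since Reg3g lies above Reg3a in all 6 saline libraries when only the principal transcript's length is taken. Together the 6 genes took 1.12% to 3.14% of all counts in the saline libraries.

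**Figure D1:**
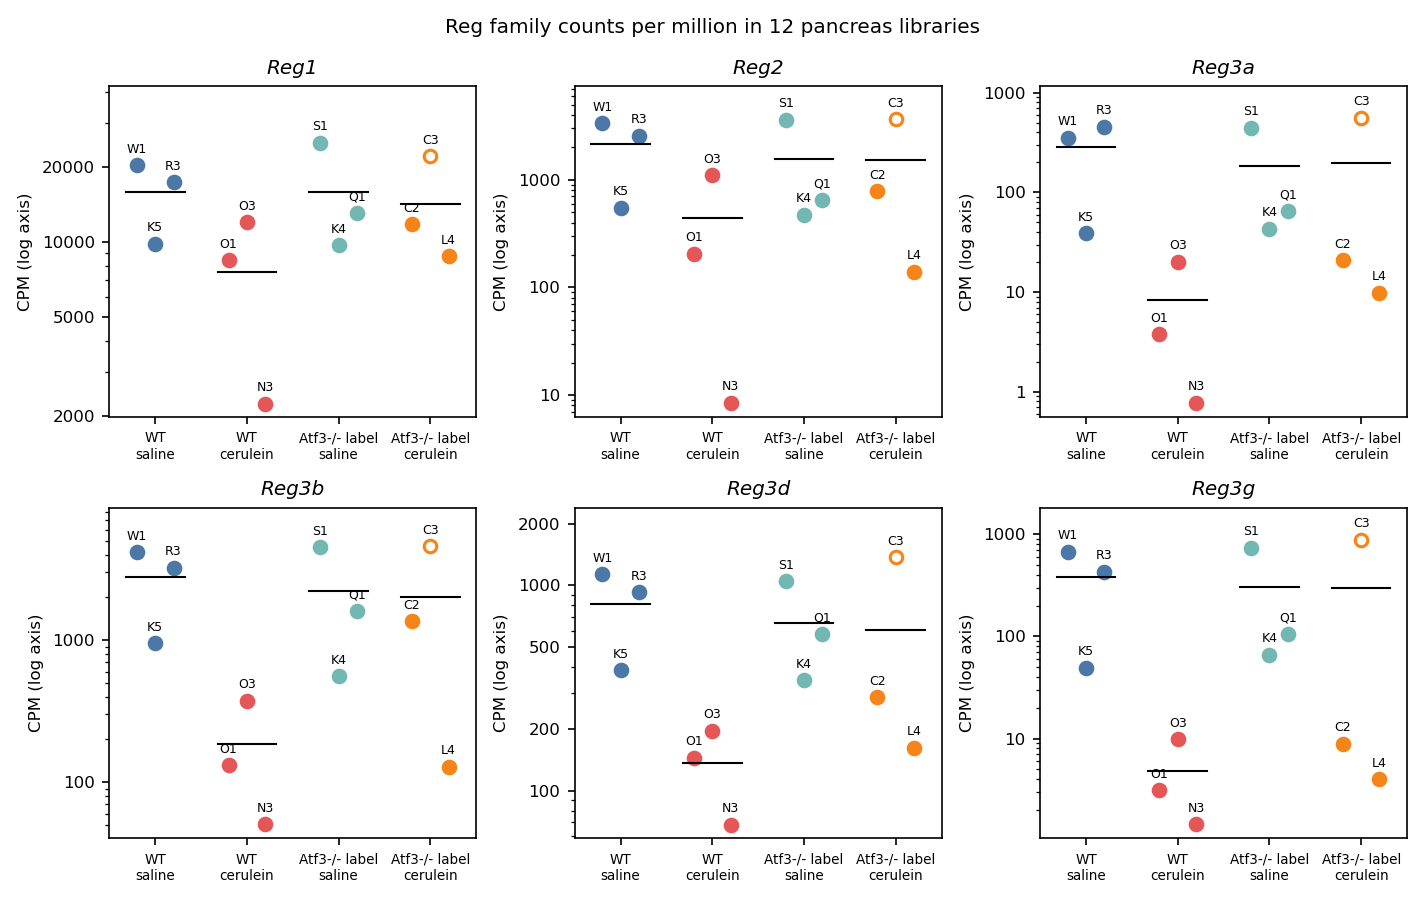
CPM (TMM-scaled, log axis) of the 6 Reg genes in each library, by group; each point is 1 animal, black bars are group means, and the open point is library C3. For all 6 genes N3 is the lowest point, and C3 is the highest for every gene other than Reg1, where S1 is higher.

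The saline animals, which had received no cerulein, differed widely in their Reg levels. For Reg1 the wild-type saline libraries held 20278 CPM (W1), 9793 (K5) and 17351 (R3), and the labelled-knockout saline libraries 24902 (S1), 9673 (K4) and 13054 (Q1). The highest of these 6 levels was 2.57 times the lowest. Reg2, the closest relative of Reg1, had 3349.5 CPM (W1), 547 (K5) and 2566 (R3) in wild type and 3594 (S1), 475 (K4) and 655 (Q1) in the labelled knockout. In both genes W1, R3 and S1 were the 3 high libraries and Q1, K5 and K4 the 3 low ones.

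The Reg3 genes split the same libraries. Reg3b, the pancreatitis-associated protein gene, had 4170.4 CPM (W1), 952 (K5) and 3237 (R3) in wild type and 4513 (S1), 557 (K4) and 1617 (Q1) in the labelled knockout. Reg3d, a relative of hamster islet neogenesis-associated protein, had 1134, 386 and 926 CPM in W1, K5 and R3 and 1048, 345 and 579 in S1, K4 and Q1. Its highest level was 3.29 times its lowest, the narrowest range of the Reg3 genes. Reg3a had 355, 38.8 and 457 CPM in W1, K5 and R3 and 444, 43.3 and 64.9 in S1, K4 and Q1. Reg3g, a lectin that binds bacterial peptidoglycan, had 675, 49.6 and 432 CPM in W1, K5 and R3 and 738, 65.9 and 106 in S1, K4 and Q1. Its highest saline level was 14.9 times its lowest, the widest range in the family, ahead of Reg3a (11.8 times), Reg3b (8.11 times) and Reg2 (7.57 times).

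The members thus varied together between saline animals, but not by the same amount. W1, R3 and S1 were the 3 highest libraries for all 6 members, and Q1 was the fourth for all 6. The gap between the third and the fourth library was 1.33-fold for Reg1, 1.60-fold for Reg3d, 2.00-fold for Reg3b, 3.91-fold for Reg2, 4.06-fold for Reg3g and 5.47-fold for Reg3a. Of the 14329 genes tested, 8.93% (the members included) had W1, R3 and S1 as their 3 highest saline libraries, and 0.844% did so with a gap of at least 1.33-fold, the smallest gap among the members. Of the 15 pairs of saline libraries, 11 were ordered the same way by all 6 members. Within the labelled knockout 3 of 3 pairs were, with S1 above Q1 and Q1 above K4 throughout. Within wild type 2 of 3 were, since Reg3a was higher in R3 than in W1. Between labels, W1 was above S1 for Reg3d alone and R3 above S1 for Reg3a alone, and K5 lay below K4 for Reg3a and Reg3g and above it for the other 4 members. On plain library totals W1, R3 and S1 were again the 3 highest for all 6 members, and Q1 was the fourth for 4 of 6. The high libraries held animals of both genotype labels. Since the 6 libraries fall into separate high and low sets, no correlation between members is given.

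**Figure D2:**
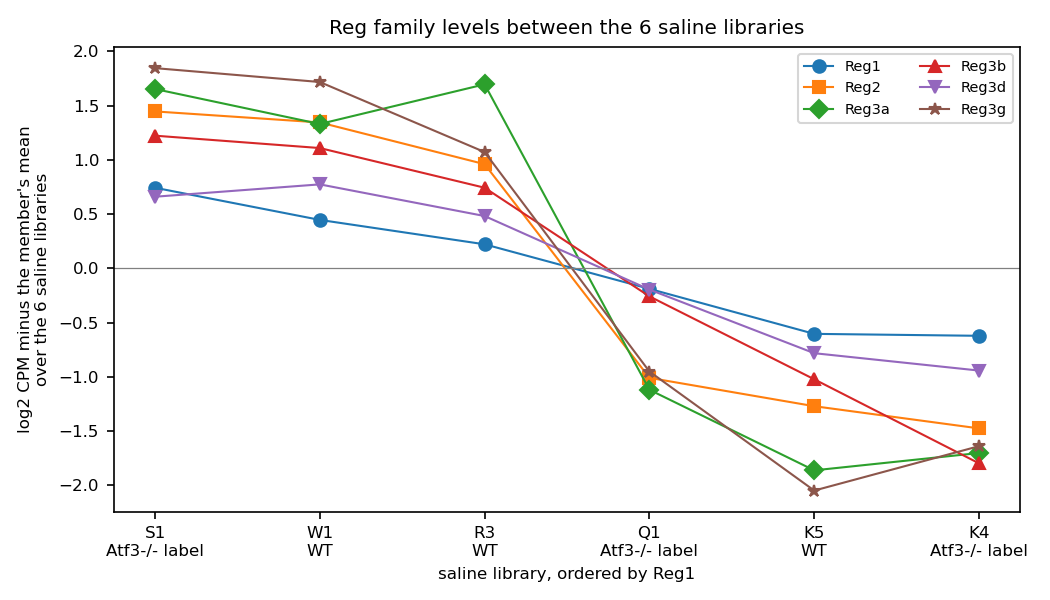
log2 CPM of each Reg gene in the 6 saline libraries, as the difference from that gene's own mean over these libraries; libraries are ordered by Reg1, and lines join the values of 1 gene. S1, W1 and R3 lie above 0 and Q1, K5 and K4 below 0 for all 6 genes, with Reg3g and Reg3a spread most and Reg1 least.

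Against all genes tested, the family was among the more variable of the saline libraries. The SD of log2 CPM over the 6 libraries was 1.75 for Reg3g (rank 78 of 14329), 1.73 for Reg3a (rank 85), 1.39 for Reg2 (rank 225), 1.23 for Reg3b (rank 357), 0.75 for Reg3d (rank 1478) and 0.56 for Reg1 (rank 2621). The median gene had 0.27. Because the spreads differ, the make-up of the family differed too. Reg3g counts came to 2.49% to 3.33% of Reg1 counts in W1, R3 and S1 and to 0.507% to 0.814% in K5, K4 and Q1. Acinar marker sums did not follow the same division, with 411303, 351961 and 381139 CPM in W1, R3 and S1 and 376902, 322117 and 481264 in K5, K4 and Q1. Nor did adipocyte and leucocyte marker sums, which among the saline libraries were highest in K4 (953 and 513 CPM) and lowest in Q1 (70.5 and 60.1). The adipocyte sum was level in K5 and S1 (158 in each), with 244 in W1 and 274 in R3. The leucocyte sum was 114 in K5, 236 in S1, 247 in W1 and 175 in R3. Duct and islet marker sums overlapped between the high and low sets as well. The sum of the liver markers, low throughout, did follow the division, but through Ttr alone. It was 14.0, 12.8 and 13.5 CPM in W1, R3 and S1 and 28.9, 14.7 and 26.2 in K5, K4 and Q1. Of this, Ttr made up 11.1 to 12.7 CPM in the high set and 13.3 to 26.2 in the low set. Alb (0.795 to 1.34 against 1.20 to 2.05) and Tat (0 to 0.315 against 0.178 to 0.565) overlapped, and the rest had hardly any counts. Over all 12 libraries Ttr was highest in L4 (98.8 CPM), which also had the highest islet marker sum. The part of these markers in the Reg levels was not tested. In whole tissue, fewer cells of a type and less RNA per cell cannot be told apart. K5 and K4, of different genotype labels, were the pair with the lowest TMM-scaled levels for all 6 members. On plain library totals Q1 lay below K4 for Reg1 and below K5 for Reg2. The codes of K5 and K4 share a letter whose meaning the labels do not give. So do those of O1 and O3, with 3.13 and 9.83 CPM of Reg3g, and of C2 and C3, with 8.91 and 888. The labels give no litter, sex, housing or day of sampling for these animals, and the part of these in the split was not tested.

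With cerulein, the Reg3 genes of wild-type pancreas stood at a small share of their saline level. Of the 6 members, 3 fell (Reg3b, Reg3d and Reg3g; edgeR's quasi-likelihood test with Benjamini-Hochberg adjustment over all genes, threshold 0.05), against 12.8% of all genes tested that were called lower. The median log2 fold change was -3.24 over the members and 0.05 over all genes. All 3 cerulein libraries lay below all 3 saline libraries for Reg3a, Reg3b, Reg3d and Reg3g, which held for 24.9% of all genes. For Reg1 and Reg2 the groups overlapped.

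Reg3g had the largest difference, with 3.13 CPM (O1), 9.83 (O3) and 1.45 (N3), which are 85, 203 and 41 counts. Its mean was 386 ± 315 CPM with saline and 4.80 ± 4.43 with cerulein (SD, n = 3 each), an 80.3-fold lower mean (log2 fold change -6.34 ± 2.09 SE, adjusted p = 0.0415). Reg3a followed with 3.76, 20.2 and 0.779 CPM in O1, O3 and N3, where N3 held 22 counts. Its mean was 34.4-fold lower than with saline, but the test did not pass (-5.11 ± 1.83 SE, adjusted p = 0.0552). In both genes the lowest cerulein library was N3, and the highest, O3, was still below every saline library.

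Reg3b stood at 131 CPM (O1), 375 (O3) and 50.3 (N3) with cerulein, a mean of 186 ± 169 against 2786 ± 1656 with saline (-3.91 ± 1.26 SE, adjusted p = 0.0376). Reg3d, at 145, 196 and 68.1 CPM, had a 5.98-fold lower mean (-2.58 ± 0.80 SE, adjusted p = 0.0323). For all 6 members O3 was the highest and N3 the lowest of the 3 cerulein libraries. N3 also had the lowest acinar marker sum of the 12 libraries (236159 CPM) and 739 CPM of leucocyte and 717 of adipocyte markers, against 134 to 182 and 30.4 to 32.7 in O1 and O3. The part of these in the Reg levels of N3 was not tested. Without N3 the log2 fold changes were -5.90 for Reg3g, -4.57 for Reg3a, -3.46 for Reg3b and -2.26 for Reg3d.

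Reg1 and Reg2 did not pass the test. Reg1 was at 8438 CPM (O1), 11984 (O3) and 2239 (N3), so that O3 lay above the saline library K5 (log2 fold change -1.07 ± 0.59 SE, adjusted p = 0.191). Reg2 was at 206, 1105 and 8.49 CPM, a 130-fold range within 1 group, and its groups overlapped as well (-2.29 ± 1.5 SE, adjusted p = 0.270). In O3 Reg2 was above the saline library K5 even though Reg3a, Reg3b, Reg3d and Reg3g were below it.

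With 3 animals a group, the wild-type calls were close to the threshold. Leaving out any 1 of the 6 wild-type libraries ended the calls of Reg3b and Reg3g (that of Reg3g also ended without Q1 of the labelled knockout, adjusted p = 0.0513), and the call of Reg3d was lost without W1, R3, O1, O3 or N3. Without library C3, which is in no wild-type group but shares in the estimate of spread, 4 members fell (16.6% of genes were called lower), with adjusted p of 0.00547 for Reg3d, 0.00583 for Reg3g, 0.0206 for Reg3a and 0.0257 for Reg3b. With C3 out and each wild-type library left out in turn, an alternative chosen after seeing the data, Reg3d and Reg3g remained past the threshold in 6 of 6 fits (adjusted p up to 0.0207 and 0.0260). Reg3a did so in 5 of 6, losing its call without O1 (adjusted p = 0.0696), and Reg3b in 2 of 6, losing it without W1, R3, O1 or N3 (adjusted p up to 0.0820).

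In the labelled knockout the answer turned on library C3. C3 held 21992 CPM of Reg1, 3658 of Reg2, 562 of Reg3a, 4579 of Reg3b, 1376 of Reg3d and 888 of Reg3g. These were the highest levels of all 12 libraries for the 5 members other than Reg1, and for Reg1 only S1 was higher. C2 and L4, the other labelled-knockout cerulein libraries, held 20.8 and 9.82 CPM of Reg3a, 286 and 162 of Reg3d and 8.91 and 3.98 of Reg3g. C3 was also near the saline libraries in Atf3 and Lif, and the part of its labelling or treatment in this was not tested.

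With C3 kept, 0 of 6 members passed the test in the labelled knockout by edgeR, DESeq2 or limma-voom, and 0 had an unadjusted p under 0.05 by edgeR. The log2 fold changes ran from -0.16 ± 0.58 SE for Reg1 to 0.10 ± 1.53 SE for Reg3a, with adjusted p of 0.878 to 0.996. By edgeR no gene at all was called in that comparison (0% of genes, with 22.7% at an unadjusted p under 0.05), while DESeq2 called 1239 genes higher and 120 lower.

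Without C3, Reg3g fell (log2 fold change -5.56 ± 1.60 SE, adjusted p = 0.0279), against 10.5% of genes called lower. Reg3g passed in 6 of 6 fits that also left out a wild-type library (adjusted p = 0.0187 to 0.0412). Those libraries are in neither group compared, so the log2 fold change hardly moved (-5.57 to -5.56) and mainly the shared spread changed. No fit left out C3 together with a library of the labelled knockout. How far this call, with C2 and L4 alone for cerulein, depends on single animals was therefore not tested. Reg3a (-3.59 ± 1.60 SE, adjusted p = 0.125) and Reg3d (-1.55 ± 0.63 SE, adjusted p = 0.0930) did not pass, although both C2 and L4 lay below all 3 saline libraries of that label for Reg3a, Reg3d and Reg3g, as for 23.7% of all genes. Reg1 (-0.63 ± 0.64 SE, adjusted p = 0.494) and Reg2 (-1.77 ± 1.65 SE, adjusted p = 0.458) overlapped, with Reg1 at 11752 CPM in C2 and 8764 in L4 and Reg2 at 783 and 139.

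In C2, Reg3b stood apart from the other Reg3 genes, although this rests on 1 animal. C2 held 1365 CPM of Reg3b, above the 557 of the saline library K4 and near the 1617 of Q1, while L4 held 128. In the same library Reg3g was at 8.91 CPM, below every saline library. The log2 fold change of Reg3b without C3 was -1.58 ± 1.23 SE (adjusted p = 0.371).

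**Figure D3:**
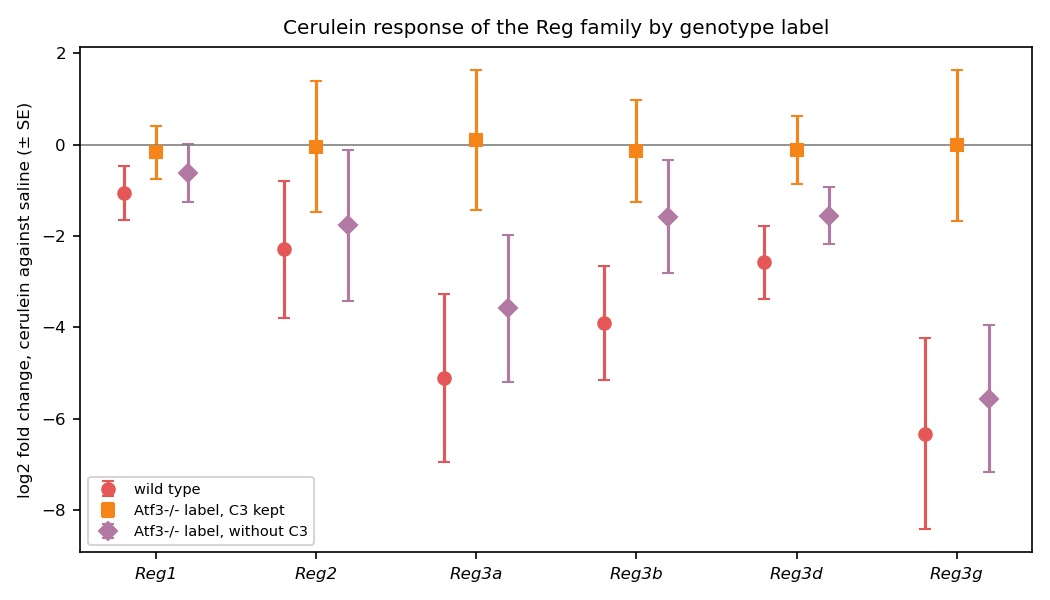
log2 fold change of each Reg gene with cerulein against saline, with its SE, in wild type and in the labelled knockout with and without library C3 (n = 3 libraries a group, 2 for labelled knockout with cerulein when C3 is left out). With C3 the labelled-knockout values lie near 0; without it they lie below 0 for all 6 genes, and Reg3g at -5.56 is next to the wild-type -6.34.

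No member passed the test between the genotype labels, and the libraries of both labels overlapped for all 6. With saline, the log2 differences of labelled knockout from wild type were 0.01 for Reg1 and -0.31 to -0.62 for the others, with an adjusted p of 1 for each (SE 0.58 to 1.65). In that comparison 0 members passed by edgeR, DESeq2 or limma-voom, and by edgeR 0 had an unadjusted p under 0.05, against 0.419% of all genes. With cerulein and C3 kept, all 6 differences were positive, from 0.91 for Reg1 to 5.98 for Reg3g. None passed by edgeR, DESeq2 or limma-voom (edgeR adjusted p = 0.604 to 0.690), and 4 members (Reg3a, Reg3b, Reg3d and Reg3g) had an unadjusted p under 0.05, against 8% of all genes. Without C3 the differences were 0.44 for Reg1, 0.07 for Reg2, 0.91 ± 1.38 SE for Reg3a, 2.01 ± 1.16 for Reg3b, 0.71 ± 0.59 for Reg3d and 0.43 ± 1.27 for Reg3g, and 0 members had an unadjusted p under 0.05 (5.07% of all genes).

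The difference between the cerulein responses of both labels was tested as an interaction. With C3 it was 2.47 ± 1.08 SE for Reg3d, 3.77 ± 1.63 for Reg3b, 5.21 ± 2.31 for Reg3a and 6.32 ± 2.55 for Reg3g on the log2 scale. These 4 members had an unadjusted p under 0.05 (4.15% of genes did), and adjusted p was 0.812 for each. Without C3 the values were 1.02 ± 0.80 for Reg3d, 2.33 ± 1.56 for Reg3b, 1.53 ± 1.84 for Reg3a and 0.78 ± 1.68 for Reg3g, and 0 members had an unadjusted p under 0.05 (3.45% of genes). For Reg1 the difference was 0.90 ± 0.83 with C3 and 0.43 ± 0.84 without it, and for Reg2 2.25 ± 2.05 and 0.52 ± 2.07. The SEs without C3, up to 2.07 log2 units, set how small a difference between the responses could have been detected.

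Set side by side, the cerulein libraries other than C3 differed from the saline libraries in part of the family's make-up. Across both labels, the 5 cerulein libraries lay below the 6 saline libraries for Reg3a (0.779 to 20.8 CPM against 38.8 to 457), Reg3d (68.1 to 286 against 345 to 1134) and Reg3g (1.45 to 9.83 against 49.6 to 738), as 15.4% of all genes did. Ratios within a library, which do not depend on library scaling, add to this. Reg3g counts were 0.653% to 3.12% of Reg3b counts in the 5 cerulein libraries and 5.21% to 16.4% in the 6 saline libraries. In C3 they were 19.4%. For Reg3d relative to Reg1 the shares were 1.64% to 3.04% with cerulein, 3.57% to 5.59% with saline and 6.26% in C3.

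Reg3a and Reg3g were lower relative to Reg1 as well, at 0.0348% to 0.177% against 0.396% to 2.64% and at 0.0371% to 0.0820% against 0.507% to 3.33%. Reg3g relative to Reg3d was at 2.13% to 5.01% against 12.9% to 70.4%. Of all genes tested, 0.293% showed such a non-overlapping lower ratio to Reg1, 0.0209% to Reg3b and 0.105% to Reg3d (the denominators were themselves low with cerulein). The other 10 of the 15 pairs of members overlapped, among them Reg2 to Reg1 (0.379% to 9.22% with cerulein against 4.91% to 16.5% with saline) and Reg3b to Reg1 (1.46% to 11.6% against 5.75% to 20.6%).

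**Figure D4:**
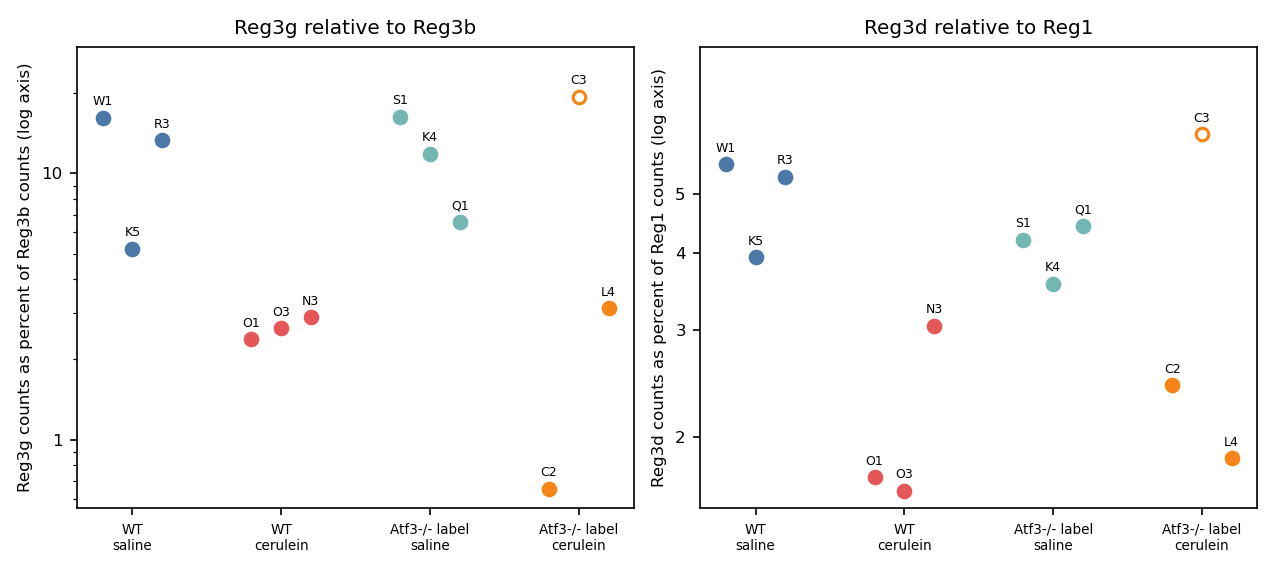
Counts of Reg3g as a percent of Reg3b (left) and of Reg3d as a percent of Reg1 (right) in each library, on log axes, by group; each point is 1 animal and the open point is C3. In both panels the 5 cerulein libraries other than C3 lie below all 6 saline libraries, and C3 is the highest point.

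The share of Reg1 in all Reg counts overlapped between the treatments. The saline libraries had 67.7% to 86.7% and the cerulein libraries 82.7% to 95.2% when C3 is set aside, and C3 had 66.5%. Per kilobase, Reg3b was second to Reg1 in 5 of the 6 saline libraries and Reg2 in K4. With cerulein the second place went to Reg2 (O1 and O3), Reg3d (N3 and L4) or Reg3b (C2). By principal-transcript length Reg3b was second in all 6 saline libraries, and the cerulein libraries kept these places.

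Genes of the pathway around the Reg proteins were counted from a list of 24 that holds the Reg receptor Extl3, the IL-6 and IL-22 family with their receptors, and the JAK and STAT3 genes. In wild type, 8 of the 22 tested rose with cerulein (17.9% of all genes did) and 2 fell (12.8% of all genes), so the lower count is no more than the share over all genes. Without C3, 10 rose (21.3% of all genes) and 4 fell (16.6%), with Il6ra and Socs1 added to the higher and Extl3 and Lifr to the lower. The list's median log2 fold change was 0.81 against 0.05 over all genes. Lif, a cytokine that signals through gp130, rose, with 0.411 to 1.03 CPM with saline and 534 to 614 with cerulein (log2 fold change 9.74 ± 1.67 SE, adjusted p = 0.00918; limma-voom 0.0585). Jak2, a kinase that phosphorylates STAT3, rose, with 8.48 to 18.8 CPM against 43.4 to 88.3 (2.28 ± 0.46 SE, adjusted p = 0.00926). Il22ra1, the specific chain of the IL-22 receptor, fell, with 27.0 to 52.7 CPM against 6.15 to 8.85 (-2.37 ± 0.36 SE, adjusted p = 0.00918). Il11 rose at low level, with 0.129 to 0.257 CPM against 0.629 to 0.774 (1.90 ± 0.55 SE, adjusted p = 0.0253), a call lost when any 1 of the wild-type libraries other than N3 was left out (adjusted p up to 0.0954). Il17ra, Cish, Stat3, Il6st and Osmr also rose, and Il11ra1 fell. Extl3 was lower by a small amount that passed only without C3 (-0.46 ± 0.18 SE, adjusted p = 0.0715 with C3, and -0.46 ± 0.15 SE, adjusted p = 0.0308 without it). Il22 itself had 1 count in all 12 libraries.

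In the labelled knockout 0 of these 22 passed by edgeR with C3. Without C3, Il17ra, Il11, Lif and Osmr rose (18.7% of genes were called higher) and Il11ra1, Il22ra1 and Il10rb fell (10.5% were called lower). Both counts are near the shares over all genes. Lif was at 261 CPM in C2 and 412 in L4 against 0.477 to 1.3 in the saline libraries of that label. Il22ra1 was at 24.7 and 12.1 CPM against 35.1 to 53.9 (-1.17 ± 0.37 SE, adjusted p = 0.0365). Other acute-phase and antimicrobial secreted proteins were counted from a list of 22. Of the 18 tested in wild type, Clu, a secreted chaperone, rose (1.72 ± 0.35 SE, adjusted p = 0.00926), and the other 17 did not pass. Over all genes, 17.9% were called higher there, so this list holds no excess of higher genes. In the labelled knockout Clu rose only when C3 was left out (0.95 ± 0.31 SE, adjusted p = 0.0441), the remaining 18 of the 19 then tested not passing. The share of all genes called higher in that fit was 18.7%.

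Because Reg3b and Reg3g are also gut genes, markers of intestinal epithelium were read beside them. Of 14 such markers, 7 had 0 counts in all 12 libraries (Fabp1, Fabp2, Alpi, Sis, Apoa4, Cdx1 and Cdx2). Their summed level, 12318 to 17009 CPM with saline and 4880.5 to 7768.5 with cerulein (C3 apart, at 13941), was nearly all Zg16, which acinar cells also express. Acinar markers themselves were lower with cerulein (values above), duct markers were higher (389 to 642 CPM in the 5 cerulein libraries other than C3 against 203 to 288 with saline, 292 in C3), and islet markers were highest in L4 (11514 CPM). Their part in the Reg levels was not tested.

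For the most abundant Reg gene and for Reg3b, the genes whose levels ran most like theirs were ranked by Pearson's r of log2 CPM among 11928 genes with a mean of at least 1 CPM. The r serves only to rank, as the libraries fall into separate sets. Over all 12 libraries the 5 non-members closest to Reg1 were Rab2a, Snhg14, Bsg, Naprt and Afg3l1 (r = 0.941 to 0.948), and those closest to Reg3b were Fuom, Arhgef10l, Ppard, Mrpl51 and Erp29 (r = 0.968 to 0.984). Without C3, Rab2a, Snhg14 and Bsg stayed among the 5 closest to Reg1, joined by Ndufc2 and Tcta (r = 0.938 to 0.959). Fuom, Arhgef10l and Ppard stayed among those closest to Reg3b, joined by Rpp40 and Slc50a1 (r = 0.967 to 0.983). Fuom, for example, had 13.4 and 15.4 CPM in R3 and W1, 9.55 in K5, 5.17 to 8.42 with cerulein in wild type and 15.1 in C3. Over the 6 saline libraries they were Arl2bp, Lpar6, Spop, Snx10 and Dad1 for Reg1 (r = 0.990 to 0.999) and Eif2s1, Rela, 1810019D21Rik, Mapk13 and Ints5 for Reg3b (r = 0.989 to 0.995). Placed in the same saline ranking, the other members stood at rank 30 (Reg3g) to 160 (Reg3a) for Reg1. For Reg3b they stood at rank 7 (Reg3d) to 186 (Reg3a). Over the 6 saline libraries many non-members thus ran closer to Reg1 or Reg3b than most of their relatives did. Over all 12 libraries, though, Reg2 ran closer to Reg1 than any non-member (r = 0.979, and 0.977 without C3). The other members then stood at rank 22 (Reg3a) to 239 (Reg3g) for Reg1. For Reg3b the members stood at rank 4 (Reg3d) to 264 (Reg1) over all 12.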

How the data were processed

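Whole pancreas of 12 mice, in 4 groups of 3 taken from the labels, was sequenced as total RNA with a stranded Illumina kit. The deposited values are whole-number read counts per Ensembl gene, not normalized. HTSeq, DESeq2 and mm10 are named in the submitters' processing notes, with no version or role. Aligner, annotation release and strand setting: not given in the sources used here. Of 49585 genes, 49326 were matched by identifier to GENCODE M21 (GRCm38) for symbols, coordinates and exon lengths.

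The members and the lists of other genes were chosen with earlier results of these data known. edgeR 4.0.16 (R 4.3.3) filtered low genes by filterByExpr, leaving 14329 (14733 without C3), computed TMM factors and ran a robust quasi-likelihood fit with 1 mean per group. P-values were adjusted by Benjamini-Hochberg over every gene in the fit, at 0.05. The model's common biological coefficient of variation was 0.357, and 0.304 without C3. Standard errors were taken as log2 fold change over the root of F. Tests are two-sided, and the code was checked on simulated counts. CPM are counts scaled to a TMM-adjusted library total of 1000000; log2 CPM used a prior count of 2. Alternatives were DESeq2 1.42.0, limma-voom (limma 3.58.1), other scalings, no filter, the compared groups alone, and each library left out. The planned correlation between members over the saline libraries is not given, because these libraries fall into separate sets.

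Named genes were the 6 members, Reg4, up to 4 listed genes past the threshold with the largest change in wild type, and the 5 non-members most like Reg1 and Reg3b; the other listed genes past the threshold, and Extl3, Il22 and Fuom, were singled out after their values were seen. Promoters, coding sequences and motifs were read with Python 3.11.15 and Biopython 1.88 from RefSeq (GRCm38.p6) and GENCODE; tables and plots used pandas 2.3.3, NumPy 2.4.6 and matplotlib 3.10.9.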

Additional observations from a re-analysis of the deposited data

How the results depend on the processing

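The number of members called in wild type (3) was 0 with no filter on low counts, where 25628 genes were tested, 4 with DESeq2 or with the compared groups alone, and 3 with RLE scaling, TMM without the 50 most abundant genes, plain library totals and limma-voom, which called Reg3a in place of Reg3g. Leaving out libraries gave 0 to 4 calls there, 0 to 1 in the labelled knockout (1 only without C3) and 0 in the other 3 comparisons. In wild type no member's direction changed in any of the alternatives. Plain library totals moved the median log2 fold change of all genes to 0.34 in wild type and 0.20 in the labelled knockout.

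Values near 0 changed sign. In the labelled knockout with C3, Reg1 was 0.0071 and Reg2 0.034 with plain totals, Reg2 was 0.033 with no filter, and Reg3a was -1.09 with limma-voom. Reg3g was 0.036 with RLE, 0.00052 with TMM without the 50 most abundant genes, 0.013 with plain totals, 0.076 with no filter and 0.037 with DESeq2. Reg1 between labels with saline was -0.017 with plain totals and -0.046 with limma-voom. Over the fits that left out libraries, the labelled-knockout log2 fold changes ran from -0.63 to 0.32 for Reg1, -1.77 to 1.44 for Reg2, -3.59 to 1.87 for Reg3a, -1.58 to 0.90 for Reg3b, -1.56 to 0.40 for Reg3d and -5.57 to 1.81 for Reg3g. Between labels with saline they ran from -0.48 to 0.26 for Reg1, -1.93 to 0.019 for Reg2, -1.36 to 0.14 for Reg3b, -0.82 to 0.0048 for Reg3d and -2.17 to 0.34 for Reg3g. Between labels with cerulein they ran from -0.50 to 3.83 for Reg2 and -0.0032 to 7.03 for Reg3g, and the difference of responses of Reg2 ran from -0.053 to 4.28. The cause was not tested. No paired analysis was possible because the groups share no full animal code; K5 and K4 share a letter, of unknown meaning, across the saline groups only. The alternatives for the correlation between members were not run, since that correlation is not given. Each group holds 3 animals, and the lowest member count was 22 in a library.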

Other observations

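Il22ra1, which encodes the specific chain of the IL-22 receptor, also differed between the saline libraries. It was at 52.7 CPM in K5 and 53.9 in Q1, both low in Reg levels, and at 27.0 in W1, 33.7 in R3 and 35.1 in S1, the 3 libraries high in Reg levels. In K4, which was low in Reg levels too, it was at 35.3 CPM. Jak2 was at 8.48 CPM in K5 and 9.47 in Q1 and at 15.7 to 19.7 in the other 4 saline libraries, K4 among them. These values were read after the Reg levels of the same libraries were known, and no relation was tested.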
